A study of Mus musculus with 12 samples.

Results

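The genes described here encode the glutathione, peroxiredoxin and thioredoxin antioxidant system, together with superoxide dismutases, catalase, the transcription factor NRF2 and its target NQO1. Members were chosen by symbol from the 38924 genes of the count table: every glutathione transferase, glutathione peroxidase, peroxiredoxin, thioredoxin, thioredoxin reductase and superoxide dismutase symbol, plus Cat, Gclc, Gclm, Gss, Gsr, Nqo1 and Nfe2l2. This gave 58 genes, of which 2 named as pseudogenes with the ending -ps were left out, so that 56 members remained. Transcripts were measured by sequencing total RNA of interscapular brown fat, a depot that burns fuel to make heat, from 12 wild-type mice of the strain C57BL/6J, 14 weeks of age at collection. From 10 weeks of age they had lived for 4 weeks at 6 °C, at 22 °C or at 30 °C, which is thermoneutral for a mouse, with 4 mice at each temperature. All groups shared strain and genotype, and C57BL/6J mice are known to carry a defective gene for nicotinamide nucleotide transhydrogenase (Nnt), which supplies NADPH in mitochondria.

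As background, superoxide that leaks from the respiratory chain is turned into hydrogen peroxide by superoxide dismutases, and peroxides are then removed by catalase, glutathione peroxidases and peroxiredoxins. Peroxiredoxins are recycled by thioredoxins and thioredoxin reductases, glutathione peroxidases by glutathione and glutathione reductase, and both routes draw on NADPH. Glutathione transferases join glutathione to electrophiles such as the aldehydes that lipid peroxidation leaves. Brown adipocytes are rich in mitochondria, and peroxide removal in mitochondria and peroxisomes is carried out by dedicated members of these families.

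Total counts ran from 18290162 to 32513051 per library, except for 86438386 in 22 °C mouse 3. The columns of 2 libraries at 30 °C could not be matched to a numbered mouse and are called mice A and B. Values at 30 °C are given in the order mice 1, 2, A and B, and those at the other temperatures in the order mice 1 to 4, as TMM-normalised CPM, the counts of a gene relative to the scaled total of its library. The brown adipocyte label held: all 14 brown adipocyte markers were tested, and their summed level was 24740 to 27090 CPM at 6 °C, 17750 to 20890 CPM at 22 °C and 11480 to 13490 CPM at 30 °C. A sum follows its most abundant markers, and the markers did not all move with it. At 6 °C against 30 °C, 8 were higher and 1 lower (adjusted p under 0.05), beside 25.3% and 31.5% of all genes. At 6 °C against 22 °C, 3 were higher and 3 lower, beside 16.9% and 17.4%. Their median log2 fold changes in these comparisons were 0.45 and -0.05. Markers of other cells moved with temperature too. The summed level of 14 macrophage markers was 284 to 582 CPM at 6 °C and 162 to 230 CPM at 22 °C, against 598 to 2024 CPM at 30 °C, with the highest values in mice A and B. The 12 fibroblast and preadipocyte markers summed to 931 to 1157, 1095 to 1655 and 2786 to 5317 CPM at 6, 22 and 30 °C. The 12 endothelial markers summed to 1208 to 1277, 1092 to 1248 and 1647 to 1965 CPM. The T and natural killer cell markers, 11 tested of 12 listed, summed to 8.87 to 16.1, 11.7 to 13.9 and 24 to 46.2 CPM. The sum of 13 skeletal muscle markers ran unevenly from 37.1 to 5041 CPM. Red blood cell markers, 6 tested of 9 listed, summed to 85.9 to 210 CPM with no order by temperature. White adipocyte markers, 5 tested of 8 listed, summed to 53.4 to 113, 134 to 277 and 281 to 363 CPM at 6, 22 and 30 °C. Among those listed, Tcf21 was at 0 in every library at 6 and 30 °C. None of the brown adipocyte, macrophage, fibroblast, endothelial, T and natural killer cell or muscle markers was at 0 in any library. In bulk tissue, fewer cells of a type and less RNA per cell cannot be told apart, and the part of these cells in the members' results was not tested.

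Of the 56 members, 47 had enough counts to be tested, and they spanned a wide range of levels. Set per kilobase of exon sequence, Gpx3, the secreted glutathione peroxidase, was the most abundant member, at 663 at 6 °C, 1492 at 22 °C and 2105 at 30 °C (mean CPM per kb). Prdx3 (mitochondrial peroxiredoxin), Cat (catalase), Mgst1 (a membrane-bound glutathione transferase) and Gpx1 (the cytosolic and mitochondrial glutathione peroxidase) followed, with means over all mice of 283, 275, 272 and 263 CPM per kb. At 6 °C the means of Gpx3, Prdx3 and Cat lay closer together, at 663, 364 and 334 CPM per kb, than at 30 °C, where they were 2105, 191 and 189 CPM per kb. The lowest tested members, Gstm6, Gstp2 and Gstcd, stood at 0.927, 1.02 and 1.02 CPM per kb. The other 9 members had too few counts to test. Over all 12 libraries these were Gstt4 with 51 counts, Prdx6b with 31, Gstm3 with 5 and Prdx2-rs3 with 3. There were also Gpx5 and Gsta1 with 2 each, Gpx6 with 1, and Gpx2 and Gsta2 with none.

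**Figure D1:**
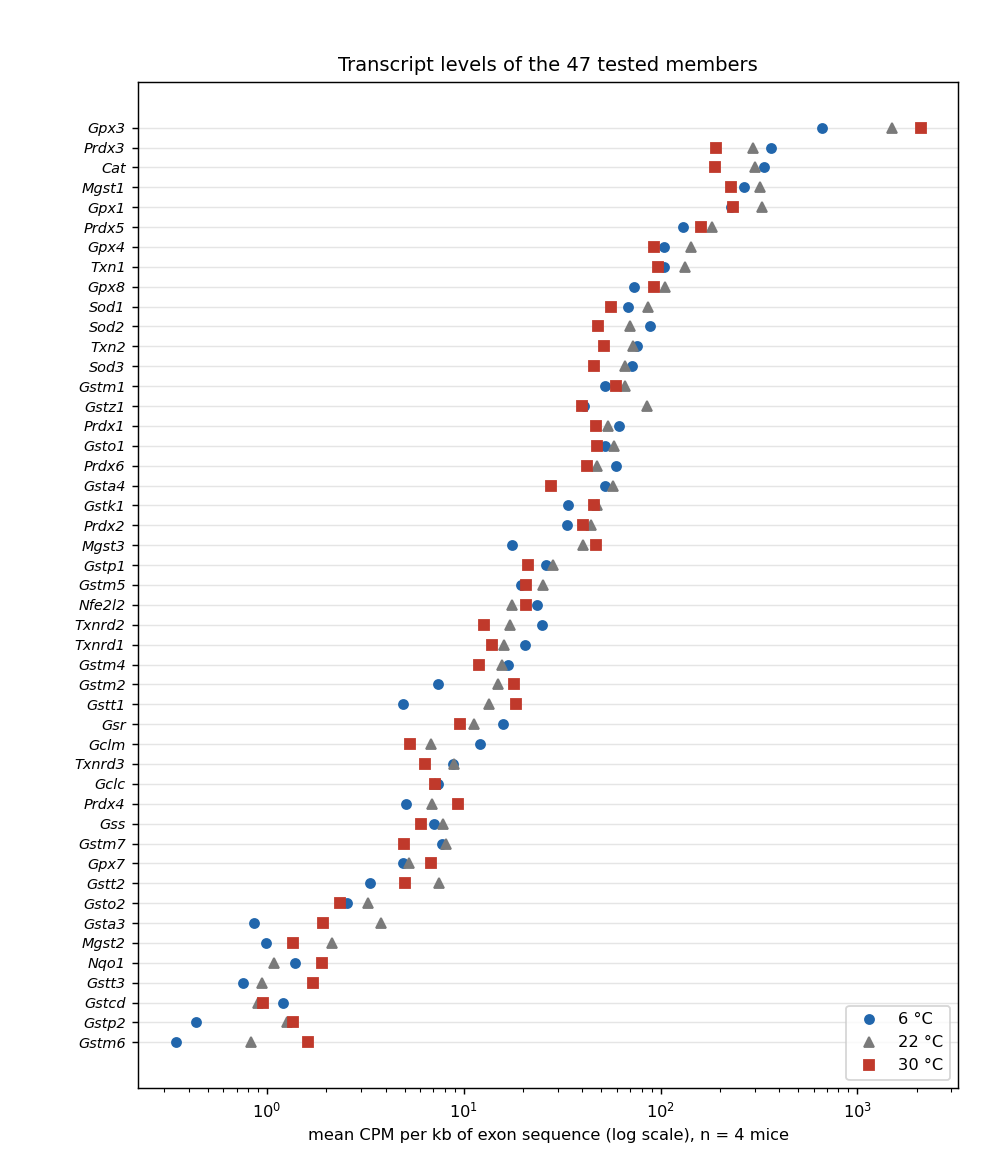
Mean transcript level of the 47 tested members, as CPM per kb of exon sequence on a log scale, at 6 °C (blue circles), 22 °C (grey triangles) and 30 °C (red squares), n = 4 mice each. Gpx3 stands highest at every temperature, with 663 CPM per kb at 6 °C, 1492 at 22 °C and 2105 at 30 °C.

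Each temperature was compared with each other, and a member was called changed at an adjusted p under 0.05 over all 14870 tested genes (Benjamini-Hochberg adjustment of the quasi-likelihood test of edgeR). Log2 fold changes are given ± their SE. At 6 °C against 30 °C, 17 of the 47 tested members were higher (36.2%), where 25.3% of all tested genes were called higher, and 14 were lower (29.8%), where 31.5% were called lower. In all, 31 members were called, 66.0%, beside 56.8% of all genes. By at least 2-fold, 1 of the 47 members rose (5.86% of all genes did) and 7 of the 47 fell (12.4% of all genes did). Counts this small cannot set the members apart from all genes. The median log2 fold change of the members was 0.11, beside -0.11 over all tested genes.

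At 22 °C against 30 °C the balance lay further toward higher levels. There 25 members were higher (53.2%, beside 21.8% of all genes), 7 were lower (14.9%, beside 22.8%), and 32 were called in all, where 44.6% of all genes were called. The median log2 fold change was 0.29 for members and -0.02 for all genes. At 6 °C against 22 °C it lay the other way: 9 members were higher (19.1%, beside 16.9% of all genes) and 20 were lower (42.6%, beside 17.4%), with a called share of 61.7% against a background of 34.2% and medians of -0.27 and -0.03. The comparisons share groups of mice and are not independent of each other.

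These counts depended on how libraries were scaled. With total counts as the only scaling, all genes shifted by a median of -0.32 at 6 °C against 30 °C, -0.26 at 22 °C against 30 °C and -0.06 at 6 °C against 22 °C. The members' higher and lower counts became 11 and 22, 11 and 11, and 8 and 23. Of all 14870 tested genes, 1939 were then higher and 7888 lower, 1419 and 6224, and 1996 and 3088, in the same order. That scaling turned the sign of 11, 10 and 1 of the 47 members in these comparisons. The 6 calls lost with it at 6 °C against 30 °C were those of Sod1, Prdx1, Prdx6, Txnrd3, Gstm7 and Gstp1. At 22 °C against 30 °C 14 calls were lost with it, those of Gpx1, Txn1, Txnrd1, Txnrd3, Gclm, Gsr, Gstm4, Gstm5, Gsto1, Gsto2, Gstp1, Gstt2, Mgst1 and Mgst2. Without mice A and B the higher and lower counts were 17 and 12, 21 and 5, and 9 and 20. Of all 15171 genes tested in that fit, 3214 were higher and 3356 lower, 2151 and 2303, and 2818 and 2498. The higher count at 6 °C against 22 °C fell to 5 without 6 °C mouse 3, without 6 °C mouse 4 or without 22 °C mouse 4. The lower count at 22 °C against 30 °C was 4 without 22 °C mouse 4.

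**Figure D2:**
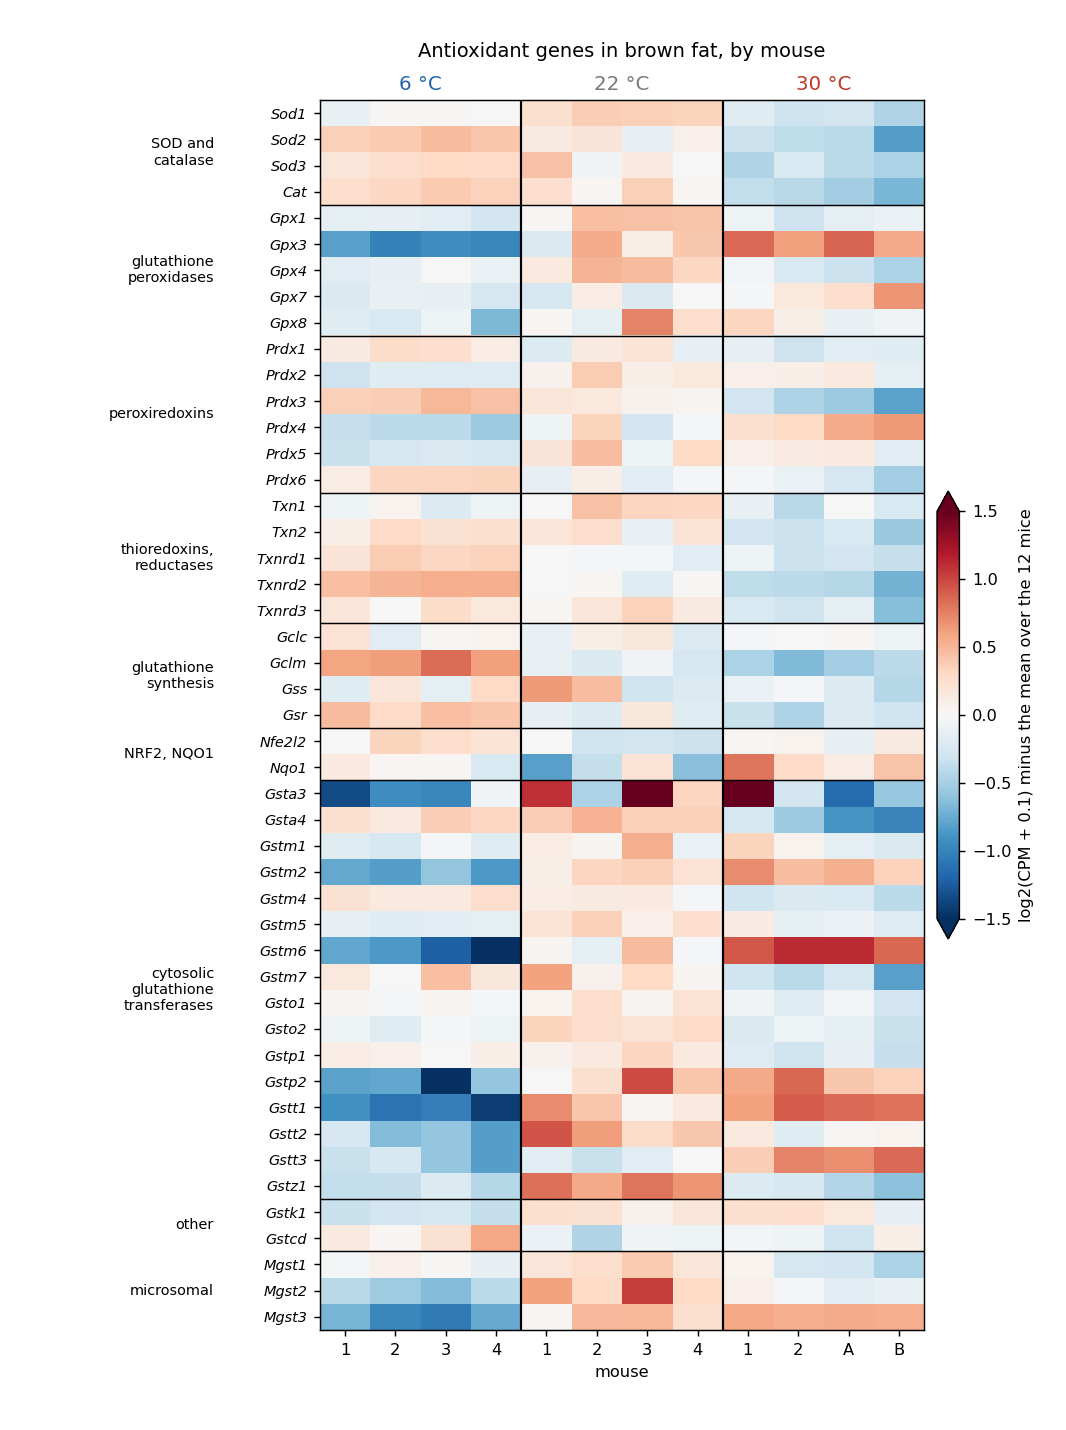
Level of each tested member in each mouse, as log2(CPM + 0.1) minus its mean over the 12 mice (red above, blue below, colours end at 1.5), with columns for 6, 22 and 30 °C and rows grouped by role. Sod2, Prdx3, Txnrd2 and Gclm are above their mean in the 4 mice at 6 °C and below it at 30 °C, Gstz1 is high at 22 °C alone, and Gstm2, Gstm6, Gstt1 and Mgst3 are low at 6 °C.

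All 4 genes for superoxide dismutases and catalase rose at 6 °C against 30 °C, where 25.3% of all genes were called higher. Sod1 lost that call with total counts as the only scaling. All 4 also rose at 22 °C against 30 °C, beside 21.8% of all genes. The 4 genes were not tested as a group. Sod2 (ENSMUSG00000006818, chr17:13006846-13040063, plus strand) encodes the manganese superoxide dismutase of the mitochondrial matrix and had 845, 868, 919 and 886 CPM at 6 °C, 729.5, 760.0, 608 and 699.9 at 22 °C, and 532, 508, 502 and 372 at 30 °C. No mouse at 6 °C overlapped with the other groups, and all 22 °C mice lay above all 30 °C mice. The log2 fold change of Sod2 was 0.88 ± 0.11 (adjusted p = 2.5e-05) at 6 °C against 30 °C, 0.55 ± 0.11 (adjusted p = 0.00139) at 22 °C against 30 °C and 0.33 ± 0.11 (adjusted p = 0.0331) at 6 °C against 22 °C. The last of these calls was lost when any mouse at 6 °C, or 22 °C mouse 3 or 4, was left out.

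Sod1 (ENSMUSG00000022982, chr16:90220754-90226329, plus strand), the cytosolic copper-zinc enzyme, peaked at 22 °C instead, with 254, 278, 277 and 274 CPM at 6 °C, 324, 354, 351 and 347 at 22 °C, and 242, 221, 226 and 200.4 at 30 °C. The 3 groups did not overlap. Its log2 fold change was 0.63 ± 0.07 (adjusted p = 4.0e-05) at 22 °C against 30 °C and -0.34 ± 0.07 (adjusted p = 0.00309) at 6 °C against 22 °C. At 6 °C against 30 °C it was 0.28 ± 0.07 (adjusted p = 0.00473) with TMM and -0.03 with total counts as the only scaling. Sod3 (ENSMUSG00000072941, chr5:52363791-52371418, plus strand), the extracellular enzyme, had 255, 269.9, 275 and 273 CPM at 6 °C, 303, 215, 247 and 224 at 22 °C, and 163, 191, 169 and 161 at 30 °C. Both colder groups lay above 30 °C and overlapped with each other, with log2 fold changes of 0.65 ± 0.10 (adjusted p = 1.5e-04) at 6 °C and 0.53 ± 0.10 (adjusted p = 0.00102) at 22 °C, each against 30 °C.

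Cat (ENSMUSG00000027187, chr2:103453849-103485160, minus strand) encodes catalase, which splits hydrogen peroxide in peroxisomes, and had 832, 861, 915 and 884 CPM at 6 °C, 828, 711, 888 and 711 at 22 °C, and 540.2, 521, 485 and 434 at 30 °C. Every mouse at 6 and 22 °C lay above every mouse at 30 °C. Catalase rose by a log2 fold change of 0.82 ± 0.10 (adjusted p = 1.4e-05) at 6 °C and 0.66 ± 0.10 (adjusted p = 1.6e-04) at 22 °C, each against 30 °C. At 6 °C against 22 °C it had 0.15 ± 0.10 (adjusted p = 0.232).

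Prdx3, Txn2 and Txnrd2, which form a thioredoxin route in mitochondria, rose at 6 °C and at 22 °C, each against 30 °C. Prdx5, a peroxiredoxin found partly in mitochondria, was not called higher in either comparison and is given further below. Prdx3 reduces peroxide in the mitochondrial matrix, Txn2 recycles it, and Txnrd2 recycles Txn2 with NADPH. Prdx3 (ENSMUSG00000024997, chr19:60864051-60874556, minus strand) had 514, 518, 571 and 546 CPM at 6 °C, 458, 448, 423 and 414 at 22 °C, and 330.0, 291, 276 and 230.2 at 30 °C. There was no overlap between any groups, and Prdx3 had a log2 fold change at 6 °C against 30 °C of 0.93 ± 0.10 (adjusted p = 6.1e-06). Txnrd2 (ENSMUSG00000075704, chr16:18426384-18479073, plus strand) had 106, 110.3, 113 and 113 CPM at 6 °C, 77.1, 79.1, 68.3 and 78.3 at 22 °C, and 59.2, 58.9, 57.3 and 47.2 at 30 °C. Its groups were likewise apart, at 0.99 ± 0.08 (adjusted p = 7.5e-07) for 6 °C against 30 °C, 0.44 ± 0.08 (adjusted p = 7.1e-04) for 22 °C against 30 °C and 0.55 ± 0.08 (adjusted p = 3.2e-04) for 6 °C against 22 °C. Txn2 (ENSMUSG00000005354, chr15:77915047-77929006, minus strand) had 294, 335, 321 and 324 CPM at 6 °C, 313, 331, 254 and 316 at 22 °C, and 226, 220.1, 235 and 186 at 30 °C. The mice at 6 °C and 22 °C overlapped and all lay above those at 30 °C. Its log2 fold change was 0.56 ± 0.10 (adjusted p = 3.3e-04) at 6 °C and 0.48 ± 0.10 (adjusted p = 0.00133) at 22 °C, each against 30 °C, and 0.07 ± 0.10 (adjusted p = 0.598) at 6 °C against 22 °C. Prdx3 rose at 22 °C against 30 °C by 0.63 ± 0.10 (adjusted p = 2.8e-04). Its call at 6 °C against 22 °C, 0.30 ± 0.10 (adjusted p = 0.0291), was lost without 6 °C mouse 3, 6 °C mouse 4 or 22 °C mouse 4.

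**Figure D3:**
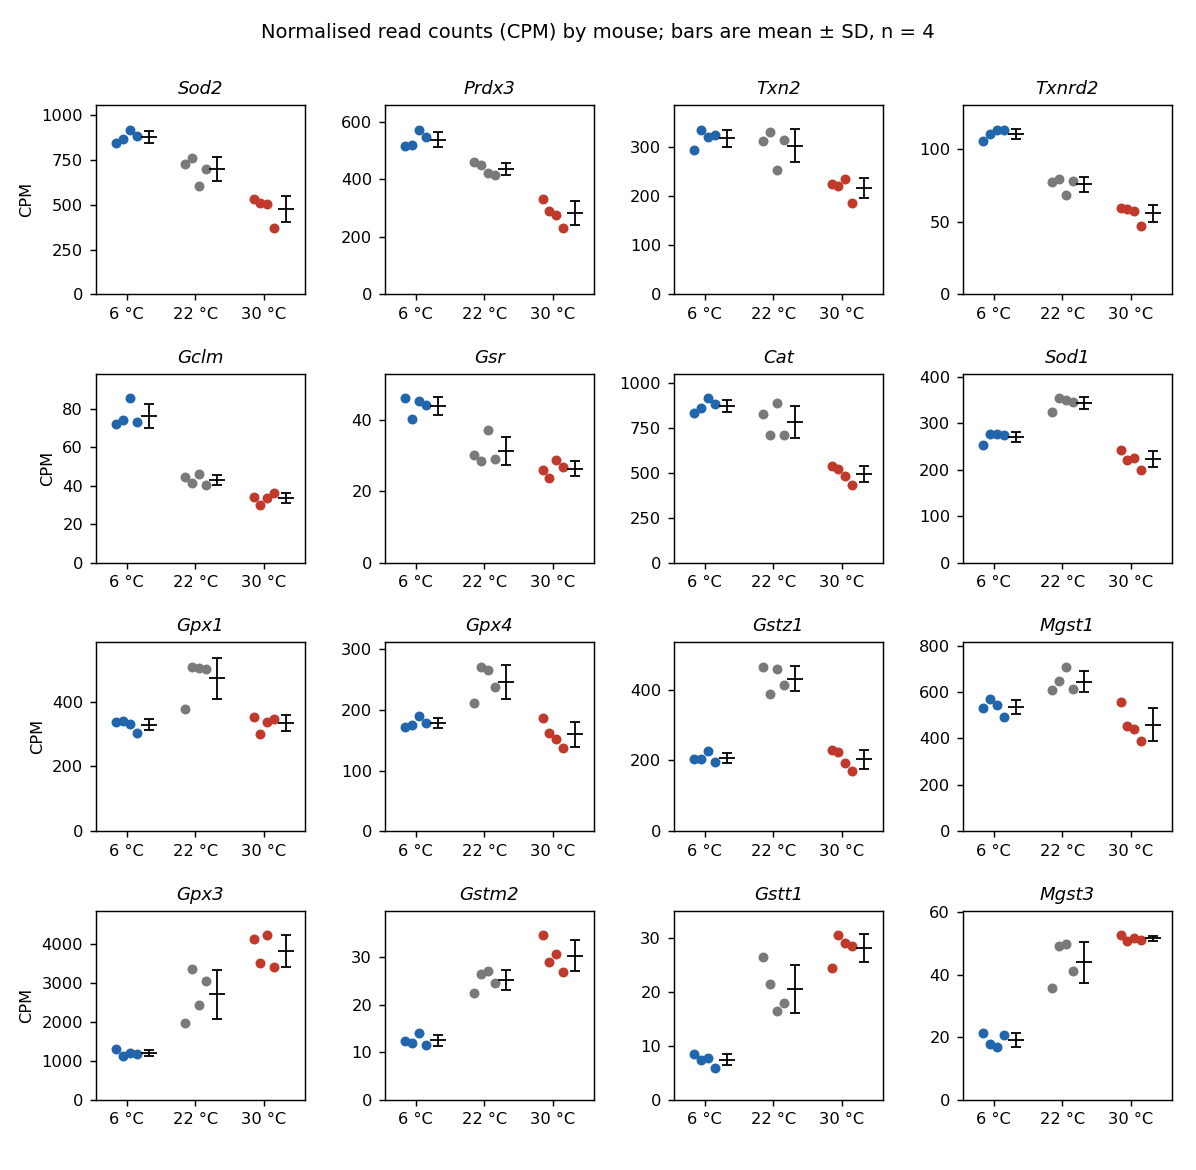
TMM-normalised counts (CPM, axis from 0) of 16 members in each mouse at 6 °C (blue), 22 °C (grey) and 30 °C (red), with mean ± SD beside the points, n = 4. Prdx3 has 514 to 571 CPM at 6 °C, above all others, Gstz1 has 389 to 464 CPM at 22 °C against at most 228 CPM elsewhere, and Gpx3 has 1133 to 1306 CPM at 6 °C, below all others.

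The other thioredoxin reductases also rose at 6 °C against 30 °C. Txnrd1 (ENSMUSG00000020250, chr10:82833951-82897712, plus strand), the cytosolic thioredoxin reductase, had 134, 152, 146 and 148 CPM at 6 °C, 118, 115, 116 and 104 at 22 °C, and 111, 94.0, 95.8 and 92.5 at 30 °C. The 6 °C mice stood apart from all others, at 0.56 ± 0.08 (adjusted p = 4.5e-05) against 30 °C and 0.36 ± 0.08 (adjusted p = 0.00325) against 22 °C. Its difference at 22 °C against 30 °C, 0.20 with adjusted p = 0.0436, was lost in 16 of 23 alternatives and was -0.06 with total counts as the only scaling. Txnrd3, the thioredoxin and glutathione reductase known best from testis, rose by 0.47 ± 0.11 (adjusted p = 0.00268) at 6 °C and 0.49 ± 0.11 (adjusted p = 0.00272) at 22 °C, each against 30 °C. Scaled by total counts alone these were 0.16 and 0.24, and both calls were lost. Txn1, the cytosolic thioredoxin, differed: it was higher at 22 °C against 30 °C (0.46 ± 0.10, adjusted p = 0.00312) and lower at 6 °C against 22 °C (-0.35 ± 0.10, adjusted p = 0.0209). At 6 °C against 30 °C it had 0.11 ± 0.10 (adjusted p = 0.385). Its lower level at 6 °C against 22 °C was lost without 6 °C mouse 3, 22 °C mouse 2 or 22 °C mouse 3.

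Among the other peroxiredoxins, the call and its direction followed no single line. The cytosolic Prdx1 rose by 0.39 ± 0.09 (adjusted p = 0.0031) at 6 °C against 30 °C and Prdx6, which uses glutathione, by 0.48 ± 0.10 (adjusted p = 0.00162). With only total counts for scaling they had 0.07 and 0.17, and neither was called. Prdx2, cytosolic like Prdx1, fell, with a log2 fold change of -0.27 ± 0.09 (adjusted p = 0.0159) at 6 °C against 30 °C and of -0.40 ± 0.09 (adjusted p = 0.00368) at 6 °C against 22 °C. The call against 30 °C was lost without 6 °C mouse 1. Prdx2 shares 11.5% of its exon bases with Junb and Rnaseh2a on the opposite strand. Prdx4, which acts in the endoplasmic reticulum, fell, with a log2 fold change of -0.87 ± 0.13 (adjusted p = 1.2e-04) at 6 °C and -0.45 ± 0.13 (adjusted p = 0.0135) at 22 °C, each against 30 °C. Without mice A and B the value at 22 °C was -0.28 and was not called. Prdx5 (ENSMUSG00000024953, chr19:6906697-6910106, minus strand), found in mitochondria, peroxisomes and cytosol, had 264, 279, 285 and 277 CPM at 6 °C, 379.5, 459, 315 and 408 at 22 °C, and 350.0, 362, 367 and 297 at 30 °C. It was lower at 6 °C in every mouse than at either other temperature, at -0.50 ± 0.11 (adjusted p = 0.00353) against 22 °C and -0.32 ± 0.11 (adjusted p = 0.0218) against 30 °C. The call against 30 °C was lost without 6 °C mouse 1, 30 °C mouse 2 or 30 °C mouse A. Prdx5 shares 19.1% of its exon bases with Trmt112 on the opposite strand. Since the sources used here do not give strandedness, reads there cannot be told apart. Prdx6 shares 92.9% of its coding bases with the untested Prdx6b, which held 31 counts in all.

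The glutathione peroxidases and thioredoxin reductases include the selenoproteins of the set. Their active-site codon TGA, elsewhere a stop, is read as selenocysteine, and in Gpx7 and Gpx8 a cysteine codon stands in its place. The 27 bases around that codon, from the GENCODE M21 transcripts of GRCm38, are shown with the codon in capitals because this site divides the members that need selenium from those that do not.
Gpx1, codon 47, chr9:108339451-108339453, plus strand: gtcgcgtctctcTGAggcaccacgatc
Gpx3, codon 73, chr11:54907256-54907258, plus strand: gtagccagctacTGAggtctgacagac
Gpx4, codon 73, chr10:80054737-80054739, plus strand: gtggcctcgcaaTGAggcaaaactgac
Gpx7, codon 56, chr4:108403430-108403432, minus strand: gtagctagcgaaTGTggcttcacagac
Gpx8, codon 79, chr13:113045661-113045663, minus strand: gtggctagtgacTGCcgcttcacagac
Txnrd1, codon 498, chr10:82896037-82896039, plus strand: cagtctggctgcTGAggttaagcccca
Txnrd2, codon 526, chr16:18477772-18477774, plus strand: gtgactggttgcTGAggctaagtcacc
Txnrd3, codon 614, chr6:89674789-89674791, plus strand: cagaaaggctgcTGAggctagccctgc
In the 3 reductases the codon is the last but one of the coding sequence. The tested members with a selenocysteine codon did not move as a block: at 6 °C against 30 °C the 3 reductases were higher, Gpx3 was lower, and Gpx1 and Gpx4 were not called.

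Of 5 tested glutathione peroxidases, 0 were called higher (beside 25.3% of all genes) and 2 lower (40.0%, beside 31.5%) at 6 °C against 30 °C. With 5 genes these shares cannot set the family apart from all genes. Gpx3 (ENSMUSG00000018339, chr11:54902453-54910377, plus strand) fell with each step, with 1306, 1133, 1202 and 1165 CPM at 6 °C, 1974, 3364, 2432 and 3048 at 22 °C, and 4126, 3511, 4216 and 3414 at 30 °C. The groups did not overlap, and the 22 °C mice spread most. Its log2 fold change was -1.67 ± 0.15 (adjusted p = 1.8e-06) at 6 °C against 30 °C, 3.18-fold lower. It was -1.17 ± 0.15 (adjusted p = 1.2e-04) at 6 °C against 22 °C and -0.50 ± 0.15 (adjusted p = 0.0143) at 22 °C against 30 °C. Gpx1 (ENSMUSG00000063856, chr9:108338903-108340343, plus strand) had 338, 342, 332 and 304 CPM at 6 °C, 378, 507, 504 and 499.7 at 22 °C, and 353, 299.8, 338 and 346 at 30 °C. It was higher at 22 °C than at either other temperature in every mouse, at 0.50 ± 0.10 (adjusted p = 0.00127) for 22 °C against 30 °C and -0.52 ± 0.10 (adjusted p = 0.00169) for 6 °C against 22 °C. At 6 °C and 30 °C its ranges overlapped (-0.02 ± 0.10, adjusted p = 0.86).

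Gpx4 (ENSMUSG00000075706, chr10:80047166-80056439, plus strand), which reduces lipid peroxides within membranes and is the best known guard against ferroptosis, had 171, 174, 190.1 and 178 CPM at 6 °C, 211, 270.4, 265 and 237 at 22 °C, and 186, 162, 152 and 137 at 30 °C. Like Gpx1 it was highest in the 4 mice at 22 °C, at 0.63 ± 0.10 (adjusted p = 3.4e-04) against 30 °C, and fell at 6 °C against 22 °C, with a log2 fold change of -0.46 ± 0.10 (adjusted p = 0.00388). Its log2 fold change at 6 °C against 30 °C was 0.16 ± 0.10 (adjusted p = 0.184). Of the peroxidases of the endoplasmic reticulum, Gpx7 was lower at 6 °C against 30 °C, with -0.47 ± 0.15 (adjusted p = 0.0158), a call lost without 30 °C mouse B or without both A and B. Gpx8 had -0.35 ± 0.19 (adjusted p = 0.131). Gpx8 reached 155 CPM in 22 °C mouse 3, against 83.3 to 111 CPM in the other mice at 22 °C.

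Glutathione is made in a pair of steps, and the genes of the first behaved differently. Gclm (ENSMUSG00000028124, chr3:122245557-122270732, plus strand), the regulatory subunit of glutamate-cysteine ligase, had 71.7, 74.0, 85.3 and 73.1 CPM at 6 °C, 44.3, 41.2, 45.9 and 40.2 at 22 °C, and 34.3, 30.1, 33.5 and 36.3 at 30 °C. The 3 groups were apart. Gclm was the member that rose by at least 2-fold at 6 °C against 30 °C, by 2.27-fold, a log2 fold change of 1.18 ± 0.08 (adjusted p = 2.0e-07). Its log2 fold change was 0.82 ± 0.08 (adjusted p = 1.7e-05) at 6 °C against 22 °C and 0.36 ± 0.08 (adjusted p = 0.00282) at 22 °C against 30 °C. The difference of these steps, that at 6 °C against 22 °C minus that at 22 °C against 30 °C, was 0.47 ± 0.14 (adjusted p = 0.0225), lost without 22 °C mouse 2 or 4 or without mice A and B. About 4.71% of its exon bases lie under genes on the opposite strand. Gclc (ENSMUSG00000032350, chr9:77754535-77794485, plus strand), the catalytic subunit, had 31.5, 24.3, 27.4 and 28.1 CPM at 6 °C, 25.1, 28.9, 30.6 and 23.5 at 22 °C, and 26.7, 27.0, 27.5 and 25.8 at 30 °C. The groups of Gclc overlapped throughout, with 0.06 ± 0.10 (adjusted p = 0.629) at 6 °C against 30 °C, and with total counts as the only scaling its difference became -0.26.

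Gss (ENSMUSG00000027610, chr2:155563181-155592810, minus strand), glutathione synthetase, had 35.6, 45.8, 36.4 and 49.8 CPM at 6 °C, 62.7, 55.8, 32.7 and 35.1 at 22 °C, and 37.5, 39.9, 35.1 and 30.1 at 30 °C. It varied more among mice than between temperatures, highest in 22 °C mice 1 and 2, and 15.4% of its exon bases lie under other genes. At 6 °C against 30 °C its log2 fold change was 0.23 ± 0.20 (adjusted p = 0.347). Gsr (ENSMUSG00000031584, chr8:33652523-33698163, plus strand), which returns oxidised glutathione to its reduced form, had 45.9, 40.1, 45.1 and 44.1 CPM at 6 °C, 30.2, 28.6, 37.1 and 28.9 at 22 °C, and 26.0, 23.8, 28.6 and 26.8 at 30 °C. The 6 °C mice lay above all others, at 0.73 ± 0.09 (adjusted p = 2.6e-05) against 30 °C and 0.48 ± 0.09 (adjusted p = 0.00176) against 22 °C. Its difference at 22 °C against 30 °C, 0.25 with adjusted p = 0.0427, was lost in 13 of 23 alternatives and was -0.01 when scaled by total counts alone.

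The regulator of many of these genes was not called at 6 °C against 30 °C. Nfe2l2 (ENSMUSG00000015839, chr2:75675513-75704641, minus strand) encodes NRF2, a transcription factor controlled mainly through the stability of its protein. It had 76.8, 97.3, 92.5 and 89.5 CPM at 6 °C, 77.7, 62.7, 64.1 and 62.0 at 22 °C, and 79.3, 80.0, 71.2 and 85.1 at 30 °C. Its log2 fold change was 0.18 ± 0.09 (adjusted p = 0.127) at 6 °C against 30 °C and 0.42 ± 0.09 (adjusted p = 0.00469) at 6 °C against 22 °C. The 22 °C level was lowest in 3 of the 4 mice, and the difference of the steps was 0.66 ± 0.17 (adjusted p = 0.00985). Nqo1 (ENSMUSG00000003849, chr8:107388225-107403206, minus strand), a quinone reductase often used as a readout of NRF2, was low throughout, with 2.4, 2.21, 2.19 and 1.84 CPM at 6 °C, 1.19, 1.67, 2.52 and 1.36 at 22 °C, and 3.83, 2.65, 2.34 and 2.93 at 30 °C. Nqo1 was lower at 22 °C against 30 °C, with -0.76 ± 0.24 (adjusted p = 0.0202). That call was lost without 22 °C mouse 1, 22 °C mouse 4 or 30 °C mouse 1. Nqo1 had -0.44 ± 0.24 (adjusted p = 0.13) at 6 °C against 30 °C.

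NRF2 acts on the antioxidant response element, whose core TGACNNNGC was searched on both strands of the RefSeq promoter windows of GRCm38.p6, from 250 bases before to 50 after each start. Of the members, 48 had a window, and 9 of these (18.8%) held the core, beside 14.0% of the 27025 genes with windows. Counted by window the shares were 14.3% of the 63 windows of members and 12.4% of all 32851. The members with the core were Gclm, Prdx1, Txnrd1, Sod1, Mgst1, Gsta3, Gstm5, Gstm7 and Nfe2l2. Of the 17 members called higher at 6 °C against 30 °C, 13 had a window and 5 held it. Promoters are shown for Gclm, the member that rose most, and for Prdx1 and Txnrd1, with the match in capitals. In all 3 the core lies on the opposite strand, as GCNNNGTCA, and starts 134, 133 and 92 bases before the start site. A match is a description of these letters and does not show binding.
Gclm, chr3:122245307-122245606, plus strand: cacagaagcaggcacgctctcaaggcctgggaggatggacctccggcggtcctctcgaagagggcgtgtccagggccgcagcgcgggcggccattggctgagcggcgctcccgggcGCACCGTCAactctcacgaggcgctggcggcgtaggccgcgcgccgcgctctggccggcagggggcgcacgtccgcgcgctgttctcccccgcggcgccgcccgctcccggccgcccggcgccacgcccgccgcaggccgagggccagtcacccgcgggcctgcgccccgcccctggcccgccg
Prdx1, chr4:116685349-116685648, plus strand: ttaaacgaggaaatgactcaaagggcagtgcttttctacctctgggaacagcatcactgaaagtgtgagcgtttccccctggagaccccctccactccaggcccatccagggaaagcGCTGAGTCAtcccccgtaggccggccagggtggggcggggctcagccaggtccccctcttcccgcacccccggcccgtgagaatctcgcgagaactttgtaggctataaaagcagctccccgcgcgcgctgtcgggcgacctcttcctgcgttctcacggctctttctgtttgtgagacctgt
Txnrd1, chr10:82858956-82859255, plus strand: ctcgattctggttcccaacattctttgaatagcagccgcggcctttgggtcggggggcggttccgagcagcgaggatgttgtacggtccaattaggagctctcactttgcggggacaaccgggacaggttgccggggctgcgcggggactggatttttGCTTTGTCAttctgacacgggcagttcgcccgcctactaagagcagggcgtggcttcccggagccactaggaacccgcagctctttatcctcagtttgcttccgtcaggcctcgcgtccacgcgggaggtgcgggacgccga

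The glutathione transferases were the largest family. Of 16 tested cytosolic members, 4 were higher (25.0%, beside 25.3% of all genes) and 6 lower (37.5%, beside 31.5%) at 6 °C against 30 °C, shares near those of all genes. At 22 °C against 30 °C, 9 were higher (56.2%, beside 21.8%) and 4 lower (25.0%, beside 22.8%). Between 6 °C and 22 °C, 8 were lower at 6 °C (50%, beside 17.4%) and none higher. Gsta4 (ENSMUSG00000032348, chr9:78182774-78209349, plus strand) encodes an alpha-class enzyme that conjugates 4-hydroxynonenal, a product of lipid peroxidation. It had 64.6, 60.5, 70.4 and 67.8 CPM at 6 °C, 70.8, 78.4, 70.2 and 69.9 at 22 °C, and 46.0, 37.5, 29.3 and 27.4 at 30 °C, above 30 °C in every colder mouse. It rose by 0.91 ± 0.13 (adjusted p = 9.8e-05) at 6 °C and 1.05 ± 0.14 (adjusted p = 8.5e-05) at 22 °C, each against 30 °C. Gsta3 was uneven, with 39.8 CPM in 22 °C mouse 3, 21.4 CPM in 30 °C mouse 1 and 2.44 to 13.6 CPM in all others, and was not called in any comparison.

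Gstz1 stood apart at 22 °C. Gstz1 (ENSMUSG00000021033, chr12:87147165-87164723, plus strand), an isomerase of tyrosine breakdown, had 203, 204, 228 and 196 CPM at 6 °C, 464, 389, 459 and 414 at 22 °C, and 228, 223, 193 and 172 at 30 °C. Every 22 °C mouse lay above every other mouse, by about 2.12-fold against 30 °C (1.08 ± 0.10, adjusted p = 1.2e-05). It fell, with a log2 fold change of -1.06 ± 0.10 (adjusted p = 1.6e-05) at 6 °C against 22 °C. Gstz1 had 0.03 ± 0.10 (adjusted p = 0.832) at 6 °C against 30 °C, which became -0.29 with total counts as the only scaling. Gstz1 shares 12.2% of its exon bases with genes on the opposite strand. The omega-class genes, which reduce dehydroascorbate, also were higher at 22 °C against 30 °C, Gsto1 by 0.28 ± 0.08 (adjusted p = 0.0078) and Gsto2 by 0.47 ± 0.10 (adjusted p = 0.00227). Scaled by total counts alone they had 0.02 and 0.21 there, with both calls lost. They had 0.15 ± 0.08 (adjusted p = 0.114) and 0.11 ± 0.10 (adjusted p = 0.398) at 6 °C against 30 °C. Gstp1 rose by 0.31 ± 0.07 (adjusted p = 0.00311) at 6 °C and 0.42 ± 0.07 (adjusted p = 6.2e-04) at 22 °C, each against 30 °C. Its 6 °C value was -0.01 with total counts as the only scaling. Gstp2, which fell, with a log2 fold change of -1.65 ± 0.31 (adjusted p = 5.9e-04) at 6 °C against 30 °C, is 98.1% identical to Gstp1 in coding bases and had at most 2.05 CPM in any mouse. How the counting divided reads between the pair is not given in the sources used here.

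The mu-class genes lie side by side, 7 genes within 149 kb of chromosome 3 (chr3:107895821-108044894), and their transcripts went different ways. Gstm1 (ENSMUSG00000058135, chr3:108012255-108017973, minus strand), the most abundant of them per kilobase, had 75.7, 72.9, 84.3 and 75.8 CPM at 6 °C, 93.3, 88.4, 126 and 80.1 at 22 °C, and 108, 89.2, 78.5 and 74.0 at 30 °C. Its groups overlapped, with -0.18 ± 0.14 (adjusted p = 0.289) at 6 °C against 30 °C. Gstm2 (ENSMUSG00000040562, chr3:107981702-107986453, minus strand) had 12.3, 11.9, 14.0 and 11.6 CPM at 6 °C, 22.5, 26.4, 27.2 and 24.5 at 22 °C, and 34.5, 29.0, 30.6 and 26.8 at 30 °C. At 6 °C it was lower in every mouse than at either other temperature, with -1.28 ± 0.10 (adjusted p = 4.9e-07) against 30 °C and -1.01 ± 0.10 (adjusted p = 1.8e-05) against 22 °C. The small step at 22 °C against 30 °C, -0.27, was called (adjusted p = 0.0375) and was lost in 11 of 23 alternatives. Gstm6 fell further, with -2.21 ± 0.22 (adjusted p = 4.1e-06) at 6 °C against 30 °C, at the low levels of 0.472 to 0.853 CPM at 6 °C and 2.87 to 3.46 CPM at 30 °C. Of the same 7 genes, Gstm4 and Gstm7 rose, by 0.48 ± 0.07 (adjusted p = 8.4e-05) and 0.64 ± 0.16 (adjusted p = 0.00369) at 6 °C against 30 °C. Gstm7 lies beside Gstm6, and Gstm1 lies between Gstm2 and Gstm4. With total counts for scaling Gstm7 had 0.33 there and lost the call. Gstm5 had -0.09 ± 0.08 (adjusted p = 0.387), and 13.9% of its exon bases lie under a gene on the opposite strand. Coding identities among Gstm1, Gstm2, Gstm4, Gstm6 and Gstm7 ran from 80.8% to 86.3%.

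The theta-class genes stand together as well, 4 genes within 63.3 kb of chromosome 10 (chr10:75774115-75837424). Gstt1 (ENSMUSG00000001663, chr10:75783813-75798584, minus strand) had 8.57, 7.46, 7.82 and 5.98 CPM at 6 °C, 26.4, 21.5, 16.5 and 18 at 22 °C, and 24.5, 30.5, 29.1 and 28.5 at 30 °C. It fell 3.76-fold at 6 °C against 30 °C, with a log2 fold change of -1.91 ± 0.15 (adjusted p = 6.2e-07) and every 6 °C mouse below every other mouse. Its call at 22 °C against 30 °C, -0.46 ± 0.14 (adjusted p = 0.0206), was lost without 22 °C mouse 3, 22 °C mouse 4, 30 °C mouse 2, or both A and B. Beside it Gstt3 fell, with a log2 fold change of -1.18 ± 0.16 (adjusted p = 5.2e-05) at 6 °C and -0.85 ± 0.16 (adjusted p = 8.8e-04) at 22 °C, each against 30 °C. Gstt3 shares 13.6% of its exon bases with Gm20441 on the same strand. Gstt2 (ENSMUSG00000033318, chr10:75831114-75837424, minus strand) had 17.3, 13.1, 13.8 and 11.6 CPM at 6 °C, 39.6, 31.8, 25.0 and 27.4 at 22 °C, and 22.8, 18.2, 20.8 and 21.4 at 30 °C. It was higher at 22 °C against 30 °C (0.57 ± 0.15, adjusted p = 0.00697) and lower at 6 °C than at either, with -0.58 ± 0.15 (adjusted p = 0.00524) against 30 °C and -1.15 ± 0.15 (adjusted p = 1.5e-04) against 22 °C.

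**Figure D4:**
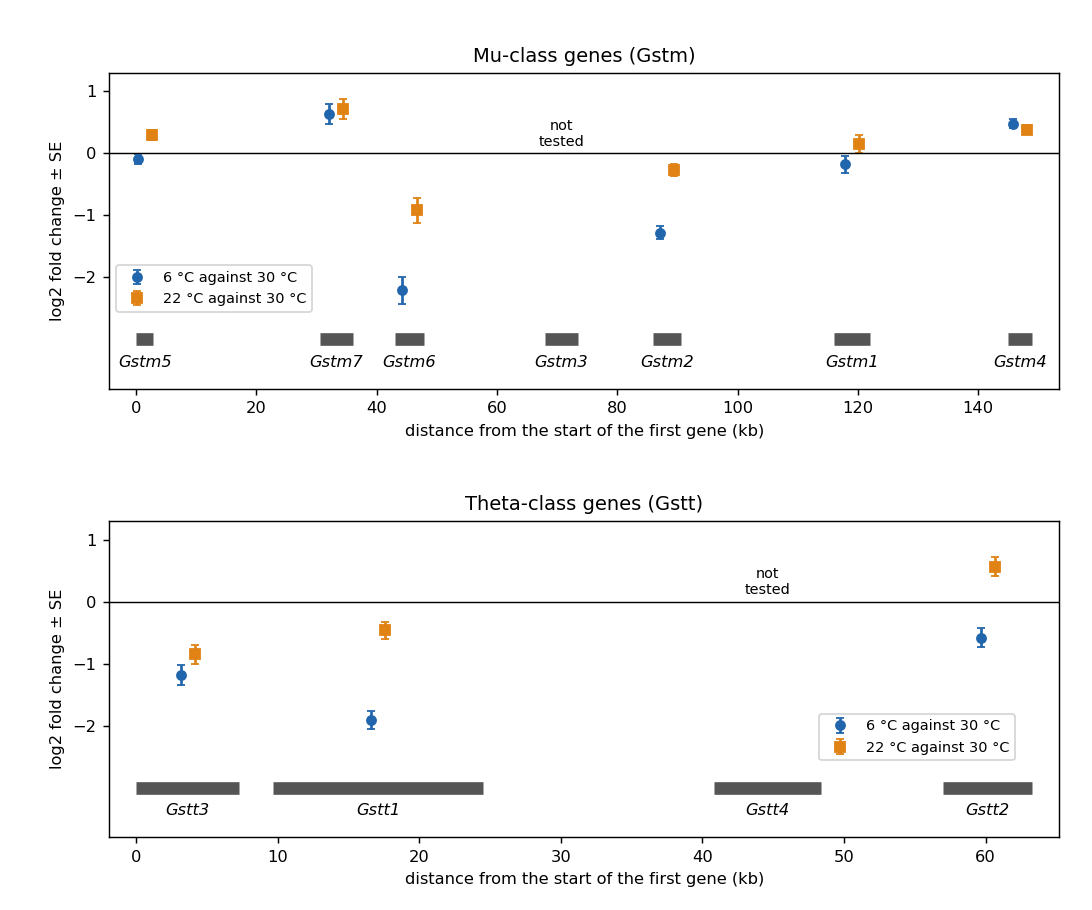
Log2 fold change ± SE at 6 °C against 30 °C (blue circles) and at 22 °C against 30 °C (orange squares) of the mu-class (top) and theta-class (bottom) glutathione transferase genes, placed by distance in kb from the start of the first gene, with genes as grey bars; both comparisons share the 30 °C mice. At 6 °C against 30 °C, Gstm7 stands at 0.64, Gstm6 at -2.21, Gstm2 at -1.28, Gstm1 at -0.18 and Gstm4 at 0.48, in this order. Gstm3, between Gstm6 and Gstm2, was not tested. Gstt1 at -1.91 is the lowest of its row.

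Of the 3 membrane-bound transferases, 2 were lower at 6 °C against 30 °C (66.7%, beside 31.5% of all genes). At 22 °C against 30 °C, 2 were higher (66.7%, beside 21.8%). With 3 genes these shares cannot set the group apart from all genes. Mgst1 (ENSMUSG00000008540, chr6:138140316-138156755, plus strand), the most abundant transferase, had 533, 568, 544 and 494 CPM at 6 °C, 609.5, 649, 708 and 612 at 22 °C, and 559, 452, 442 and 388 at 30 °C. It was highest in the 22 °C mice at 0.49 ± 0.10 (adjusted p = 0.00215) against 30 °C, with 0.22 ± 0.10 (adjusted p = 0.0918) at 6 °C against 30 °C. With total counts as the only scaling, Mgst1 had 0.23 at 22 °C against 30 °C and lost the call. Mgst3 (ENSMUSG00000026688, chr1:167371966-167393841, minus strand) had 21.5, 17.7, 16.8 and 20.8 CPM at 6 °C, 35.8, 49.1, 49.7 and 41.3 at 22 °C, and 52.6, 50.9, 51.8 and 51.1 at 30 °C. It varied little among the mice at 30 °C and fell 2.69-fold at 6 °C against 30 °C, with a log2 fold change of -1.43 ± 0.11 (adjusted p = 4.9e-07), and of -1.20 ± 0.11 (adjusted p = 1.2e-05) at 6 °C against 22 °C. Mgst2 (ENSMUSG00000074604, chr3:51660360-51682677, plus strand), which can form leukotriene C4, was low, with 3.90, 3.58, 3.29 and 3.94 CPM at 6 °C, 8.02, 6.44, 10.8 and 6.47 at 22 °C, and 5.52, 5.11, 4.65 and 4.82 at 30 °C. Mgst2 was higher at 22 °C against 30 °C (0.67 ± 0.17, adjusted p = 0.00507) and lower at 6 °C against 22 °C (-1.12 ± 0.17, adjusted p = 3.8e-04). The call at 22 °C against 30 °C was lost with total counts for scaling (0.42) and without mice A and B (0.59). Its value at 6 °C against 30 °C, -0.45 ± 0.17 (adjusted p = 0.0354), was lost in 13 of 23 alternatives. Gstk1, a transferase of mitochondria and peroxisomes, was lower at 6 °C, with -0.45 ± 0.08 (adjusted p = 4.7e-04) against 30 °C and -0.49 ± 0.08 (adjusted p = 7.1e-04) against 22 °C. Gstcd, a protein with a transferase domain, had 0.34 ± 0.15 (adjusted p = 0.0717) at 6 °C against 30 °C. Its call at 6 °C against 22 °C (0.42 ± 0.15, adjusted p = 0.0499) was lost in 16 of 23 alternatives. Beside the transferases that were lower at 6 °C, the summed fibroblast and preadipocyte markers were 931 to 1157 CPM at 6 °C, against 2786 to 5317 CPM at 30 °C, and their part in these results was not tested.

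The change at 6 °C against 22 °C was then tested against the change at 22 °C against 30 °C, gene by gene. Both use the 22 °C mice, so a gene high in those mice gives a negative value, as does one whose fall is steeper at 6 °C. So does a gene that rises at 22 °C against 30 °C and little further at 6 °C, such as Cat, with 0.66 and then 0.15. The changes differed in 24 of 47 members (51.1%, beside 29.3% of all genes): 22 were negative (46.8%, beside 15.0%) and 2 were positive (4.26%, beside 14.3%). The median of the difference was -0.52 for members and -0.04 for all genes. The most negative called values were -2.14 ± 0.17 (adjusted p = 2.3e-05) for Gstz1, -1.79 ± 0.28 (adjusted p = 9.1e-04) for Mgst2, -1.72 ± 0.25 (adjusted p = 6.3e-04) for Gstt2 and -1.52 ± 0.49 (adjusted p = 0.0338) for Gstp2. Gsta4 (-1.18 ± 0.23, adjusted p = 0.00262), Gpx4 (-1.09 ± 0.17, adjusted p = 9.5e-04), Gpx1 (-1.02 ± 0.17, adjusted p = 0.00116) and Gstt1 (-1.0 ± 0.25, adjusted p = 0.00975) followed, and then Mgst3 (-0.97 ± 0.18, adjusted p = 0.00236), Sod1 (-0.97 ± 0.12, adjusted p = 2.9e-04), Gsto2 (-0.84 ± 0.18, adjusted p = 0.00378) and Txn1 (-0.81 ± 0.18, adjusted p = 0.00505). The other 10 negative values lay between -0.78 and -0.42. Gstt1 and Mgst3 were not higher at 22 °C than at 30 °C, with -1.46 and -1.20 at 6 °C against 22 °C and -0.46 and -0.23 at 22 °C against 30 °C. The positive values were those of Gclm and Nfe2l2. Among mitochondrial members, the difference was -0.32 ± 0.17 (adjusted p = 0.164) for Prdx3 and -0.22 ± 0.19 (adjusted p = 0.419) for Sod2. It was -0.41 ± 0.17 (adjusted p = 0.0767) for Txn2 and 0.10 ± 0.14 (adjusted p = 0.62) for Txnrd2, and no one of these was called. Prdx5, found partly in mitochondria, was called, at -0.68 ± 0.18 (adjusted p = 0.0138). Without mice A and B the counts were 19 negative and 1 positive, beside 1616 and 1760 of all 15171 genes tested. Without 22 °C mouse 3 they were 20 and 4, beside 1970 and 1954 of 15111. With total counts as the only scaling, 16 members were negative and 4 positive. Of all 14870 tested genes, 1275 were then negative and 3007 positive, and the median shift over all genes was 0.20. The calls of Cat, Gstm7 and Gstp2 were lost in 5 or more of the 12 fits that left out 1 library.

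**Figure D5:**
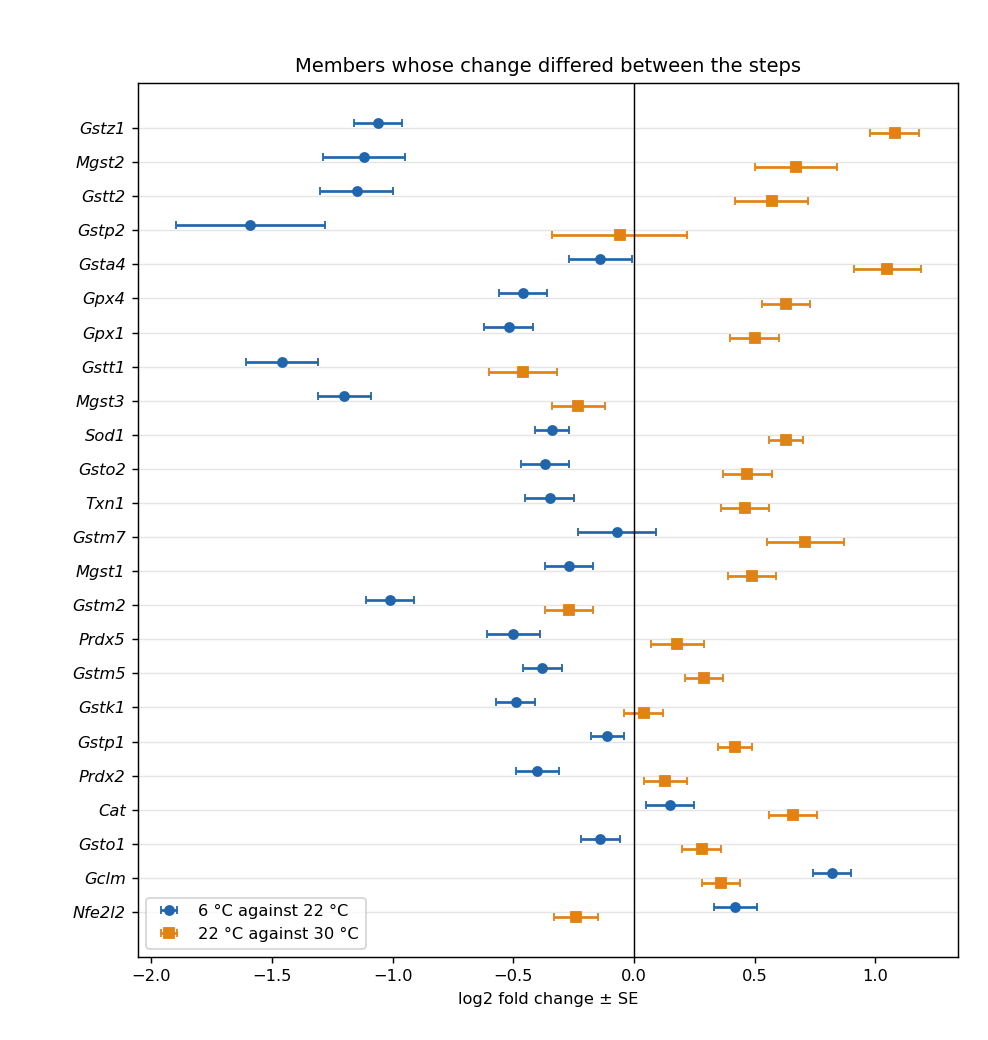
Log2 fold change ± SE at 6 °C against 22 °C (blue circles) and at 22 °C against 30 °C (orange squares) for the 24 members whose changes differed; both use the 22 °C mice. Gstz1 has -1.06 and 1.08 at the top, and Gclm, with 0.82 and 0.36, and Nfe2l2, with 0.42 and -0.24, are the members at the bottom whose blue point lies to the right of the orange one.

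Genes around the members were followed in 7 lists. For comparison, 25.3% of all tested genes were called higher and 31.5% lower at 6 °C against 30 °C, 21.8% and 22.8% at 22 °C against 30 °C, and 16.9% and 17.4% at 6 °C against 22 °C. Among 18 glutaredoxins, sulfiredoxin, sestrins and thioredoxin partners, 10 were higher and 4 lower at 6 °C against 30 °C, 9 and 1 at 22 °C against 30 °C, and 2 and 4 at 6 °C against 22 °C. Total counts as the only scaling gave 7 and 7, 8 and 4, and 2 and 5. Srxn1, the sulfiredoxin that repairs overoxidised peroxiredoxins, had 94.6, 108, 99.7 and 114 CPM at 6 °C, 53.8, 59.8, 53.9 and 49.0 at 22 °C, and 39.2, 44.3, 42.0 and 40.8 at 30 °C. Its groups were apart, and it rose by 1.32 ± 0.08 (adjusted p = 7.9e-08) at 6 °C against 30 °C, most of it at 6 °C against 22 °C (0.94 ± 0.08, adjusted p = 7.7e-06). Msra, which repairs oxidised methionine, rose by 1.18 ± 0.09 (adjusted p = 4.2e-07) at 6 °C against 30 °C. Txnip, an inhibitor of thioredoxin, ran from 315 to 1442 CPM at 6 °C and had -0.66 ± 0.40 (adjusted p = 0.178) at 6 °C against 30 °C.

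Among 23 tested NRF2 regulators and further NRF2 targets, 12 were higher and 5 lower at 6 °C against 30 °C, 7 and 5 at 22 °C against 30 °C, and 10 and 3 at 6 °C against 22 °C. Total counts as the only scaling gave 11 and 8, 5 and 10, and 8 and 3. The largest changes at 6 °C against 30 °C were in NADPH-forming enzymes that also serve fat synthesis: malic enzyme Me1 averaged 1028 ± 259 CPM at 6 °C, 507 ± 121 CPM at 22 °C and 94.4 ± 71.3 CPM at 30 °C (SD, n = 4). Pgd, of the pentose phosphate pathway, averaged 1287 ± 221 CPM at 6 °C, 516 ± 135 CPM at 22 °C and 158 ± 35.1 CPM at 30 °C. At 6 °C against 30 °C these were log2 fold changes of 3.45 ± 0.46 (adjusted p = 1.1e-04) and 3.03 ± 0.21 (adjusted p = 4.1e-07). Keap1, the adaptor that targets NRF2 for breakdown, rose by 0.49 ± 0.06 (adjusted p = 1.6e-05) at 6 °C against 30 °C. Hmox1, the haem oxygenase, had 96.3, 70.0, 58.9 and 70.8 CPM at 6 °C, 6.53, 6.50, 9.13 and 5.72 at 22 °C, and 18.2, 25.2, 98.6 and 98.6 at 30 °C. It was lower at 22 °C than at 6 °C in every mouse (3.39 ± 0.56, adjusted p = 0.00156 for 6 °C against 22 °C). At 30 °C, mice A and B, with the highest macrophage marker sums of 1674 and 2024 CPM, had the highest Hmox1 of the 4. At 6 °C against 30 °C its log2 fold change was 0.30 ± 0.50 (adjusted p = 0.632) with them and 1.78, past the threshold, without them. The part of macrophages was not tested.

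Of 19 tested genes of glutathione precursors and turnover, 5 were higher and 6 lower at 6 °C against 30 °C, 4 and 5 at 22 °C against 30 °C, and 4 and 5 at 6 °C against 22 °C. Scaled by total counts alone the first pair was 4 and 10, beside 1939 and 7888 of all 14870 tested genes. Slc3a2, a subunit of amino acid transporters that include the cystine carrier, rose by 1.35 ± 0.19 (adjusted p = 1.1e-04) at 6 °C against 30 °C. Ggt5, a gamma-glutamyl transferase, fell, with a log2 fold change of -1.49 ± 0.21 (adjusted p = 6.8e-05). Among 18 selenoproteins and genes of their synthesis the counts were 7 and 5, 6 and 2, and 3 and 4 in the same order of comparisons. Selenoh and Selenom had the largest called changes, with -1.12 ± 0.15 (adjusted p = 4.8e-05) and -0.81 ± 0.13 (adjusted p = 2.4e-04) at 6 °C against 30 °C. When libraries were scaled by total counts alone, the counts became 2 and 11, 1 and 5, and 2 and 4. All 14870 tested genes then had 1939 and 7888, 1419 and 6224, and 1996 and 3088. Without mice A and B the counts of this list were 4 and 4, 2 and 1, and 3 and 4.

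Of 8 genes of mitochondrial NADPH supply, 3 were higher and 4 lower at 6 °C against 30 °C, 2 and 4 at 22 °C against 30 °C, and 1 and 2 at 6 °C against 22 °C. Scaled by total counts alone the first pair was 1 and 5, beside 1939 and 7888 of all 14870 tested genes. Nadk2, the mitochondrial NAD kinase, rose by 0.90 ± 0.10 (adjusted p = 7.3e-06) and Idh2, a mitochondrial isocitrate dehydrogenase, fell, with a log2 fold change of -0.83 ± 0.14 (adjusted p = 2.8e-04) at 6 °C against 30 °C. Nnt, defective in this strain, averaged 3.20 ± 0.425 CPM at 6 °C, 3.03 ± 0.788 CPM at 22 °C and 6.38 ± 1.41 CPM at 30 °C (SD, n = 4). It had -1.0 ± 0.21 (adjusted p = 0.00126) at 6 °C against 30 °C.

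Of 15 tested sources of superoxide and hydrogen peroxide, 4 were higher and 6 lower at 6 °C against 30 °C, 2 and 8 at 22 °C against 30 °C, and 7 and none at 6 °C against 22 °C. Without mice A and B there were 3 higher and 1 lower at 6 °C against 30 °C. With all mice, scaled by total counts alone, there were 2 higher and 9 lower, beside 1939 and 7888 of all 14870 tested genes. Cybb and Rac2, parts of the NADPH oxidase of phagocytes, had -1.82 ± 0.43 (adjusted p = 0.00449) and -1.63 ± 0.31 (adjusted p = 7.6e-04) at 6 °C against 30 °C. They moved beside the macrophage markers, whose sum was 284 to 582 CPM at 6 °C, against 598 to 2024 CPM at 30 °C. Without mice A and B, Cybb had -0.89 and was not called. The part of macrophages was not tested. Of 9 tested genes of lipid peroxide defence and ferroptosis, 3 were higher and 1 lower at 6 °C against 30 °C, 3 and 1 at 22 °C against 30 °C, and 2 and 2 at 6 °C against 22 °C. Scaled by total counts alone the first pair was 3 and 3, and without mice A and B it was 3 and 0. The largest called changes at 6 °C against 30 °C were those of Lpcat3 (0.75 ± 0.09, adjusted p = 1.6e-05) and Acsl4 (0.62 ± 0.10, adjusted p = 1.5e-04), which build polyunsaturated phospholipids.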

How the data were processed

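The deposited file is a single table of unnormalised read counts, with Ensembl genes in rows and the 12 libraries in columns. Per the submitters' processing notes, STAR 2.4.2a, FastQC 0.10.1 and edgeR 3.14.0 are the named tools and GRCm38 and mm10 the named builds, with no role or order stated. Not given in the sources used here were the counting program, annotation release, strandedness and filters, so overlapping genes on opposite strands and near-identical copies may share reads. Per the labels' protocols, the tissue was lysed in Qiazol, RNA was purified on RNeasy columns and cleared of DNA, and Illumina libraries followed. A column was matched to a numbered mouse for 10 libraries, and 2 were placed at 30 °C by the letter of their name alone. No pair of libraries agreed within counting noise. Positions (1-based) and exon lengths are from GENCODE M21 of GRCm38, which held 96.6% of the identifiers, and promoter sequences from RefSeq (GRCm38.p6).

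These counts were tested in R 4.3.3 with edgeR 4.0.16: filterByExpr (14870 genes kept), TMM scaling, a model with 1 factor of 3 temperatures over all 12 libraries (glmQLFit, robust), and two-sided quasi-likelihood tests (glmQLFTest) with Benjamini-Hochberg adjustment over all tested genes. A gene was called at an adjusted p under 0.05. The difference of the steps is the log2 fold change at 6 °C against 22 °C minus that at 22 °C against 30 °C. SEs were taken as the size of each log2 fold change over the root of its F statistic. With the smallest library at 18290162 counts, genes of about 1 CPM have the fewest counts.

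The members and the gene lists were chosen with earlier results of these data known. Values in every mouse are given for a fixed panel of members and for members with a mean of at least 5 CPM that were called with a change of at least 2-fold in any comparison, 27 in all. From each of the 7 pathway lists the 2 called genes with the largest change at a mean of at least 5 CPM are named, with Keap1, Nnt, Txnip, Srxn1 and Hmox1. The 8 cell type lists give marker levels, and Ahsp and Wdnm1 were not matched in the table. Alternatives were RLE (the size factors of DESeq2) and total-count scaling, no filter or 1 CPM in 4 libraries, DESeq2 1.42.0, limma 3.58.1 voom, glmQLFit without robust estimation, only the 8 libraries compared, the mouse number as a block, leaving out each library or both A and B, skeletal muscle markers as a covariate, and an adjusted p under 0.01. Some items of the lists are not reported here.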

Additional observations from a re-analysis of the deposited data

Results flagged for a closer look

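In 6 of 81 groups of 4 mice (the 27 members given by mouse, at each temperature), 1 mouse lay apart from the other 3 by more than the 95% critical value of Dixon's test. Chance flags about 1 group in 20. At 6 °C, mouse 3 had 85.25 CPM of Gclm, where the others had 71.7 to 74.0 CPM, and mouse 1 had 253.7 CPM of Sod1, where the others had 274 to 278 CPM. At 22 °C, mouse 1 had 377.5 CPM of Gpx1, where the others had 499.7 to 507 CPM, and 77.73 CPM of Nfe2l2, where the others had 62.0 to 64.1 CPM. Mouse 2 at 22 °C had 78.35 CPM of Gsta4, where the others had 69.9 to 70.8 CPM. At 30 °C, mouse B had 47.16 CPM of Txnrd2, where the others had 57.3 to 59.2 CPM.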

How the results depend on the processing

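Of 1863 values recomputed for the 27 members given by mouse, 1742 kept their side of the threshold (and, where called, their direction), 88 lost the call, 28 gained one and 5 changed sign with a call on at least 1 side. Leaving the stricter threshold aside, the calls held under every alternative for 15 of 18 at 6 °C against 30 °C, 9 of 21 at 22 °C against 30 °C and 16 of 18 at 6 °C against 22 °C. These 5 sign changes came with total counts as the only scaling: Gclc at -0.26, Gstz1 at -0.29 and Sod1 at -0.03 for 6 °C against 30 °C, and Gsr at -0.01 and Txnrd1 at -0.06 for 22 °C against 30 °C. That scaling gave 11 higher and 22 lower members at 6 °C against 30 °C, beside 1939 and 7888 of all 14870 tested genes. At 22 °C against 30 °C it gave 11 higher and 11 lower members, beside 1419 and 6224 of all genes. At an adjusted p under 0.01, 2 members were lower at 22 °C against 30 °C and 5 higher at 6 °C against 22 °C. With skeletal muscle markers as a covariate 5 were higher at 6 °C against 22 °C, beside 1826 of all 14870 tested genes. The cause was not tested. With 1 library left out, 4 to 8 members were lower at 22 °C against 30 °C and 5 to 9 higher at 6 °C against 22 °C. The deviations of mice with the same number had correlations of -0.152 to 0.230 between temperatures, so the numbers were not taken to pair the mice. With the mouse number as a replicate block, in the 10 libraries with a matched number, 16 members were higher and 0 lower at 22 °C against 30 °C. Of all 15171 genes tested in that fit, 1624 were higher and 1621 lower. There 14 members differed between the steps, 1 positive and 13 negative, beside 1278 and 1190 of all genes. Depth limits the members with the lowest CPM, such as Gstp2, Gstm6 and Nqo1, and left 9 members untested.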
